A study of Rhodotorula toruloides with 18 samples.

Results

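A group of 100 abundant transcripts of the oleaginous (oil-storing) yeast Rhodotorula toruloides IFO0880, whose mean level differed little between media and strains, is described here. Group means of log2(TPM + 1) were taken in 6 groups of 3 libraries, where TPM is a level per length of transcript, expressed as a share of a fixed library total. Of the 8484 genes measured, 2617 had a highest minus lowest group mean under 1 on the log2 scale, and the 100 of these with the highest mean TPM over the 18 libraries are the members. These values chose the members, so their levels and their steadiness between group means are given as a description, with no test. Of all genes, 437 were at least as abundant as the last member, and the other 337 of them failed the range rule.

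The wild type carried a hygromycin resistance cassette at yku70 (yku70::HygR), and the deletion strain carried the same cassette plus a nourseothricin resistance cassette at cbr1 (yku70::HygR cbr1::NatR). The yku70 change was thus shared by all groups. Cells pregrown in rich glucose medium were washed and held for 8 h at 28 degrees C, 250 rpm and constant light in yeast nitrogen base (pH 6.2) that held 1% succinate, 1% cellobiose or no added carbon. Each strain was sampled in each medium in biological triplicate, per the labels. TPM keeps no record of read numbers, so depth is unknown, and every column summed to 1e+06. Background values below are over the 7938 genes whose mean reached 1 TPM, called the genes tested. Their median TPM ran from 15.5 in wild type replicate 3 on succinate to 42.1 in deletion replicate 1 without carbon. The cbr1 transcript was not examined here, because the table used gives identifiers without gene names. Over the members, wild type replicate 3 lay furthest from its group mean in all 3 media, as detailed below. The counts and medians by strain and medium are given with and without it.

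Transcripts that hold a steady share of the mRNA pool across conditions are used in yeast work as internal standards for relative measurements such as RT-qPCR. A steady share is not a steady number of molecules per cell, because TPM is a composition: when a few transcripts take more of the total, all others have to take less. Cbr1 is a transcription factor, and the series concerns its part in carbon source use and in carbon catabolite repression, by which a preferred carbon source keeps down genes for the use of others. Yku70 is a subunit of the Ku complex of non-homologous end joining, and its loss is commonly used in fungi to favour targeted gene replacement. None of the members matched the reference gene table, which is for strain NP11, so members are named by identifier and no role is given to any of them.

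**Figure D1:**
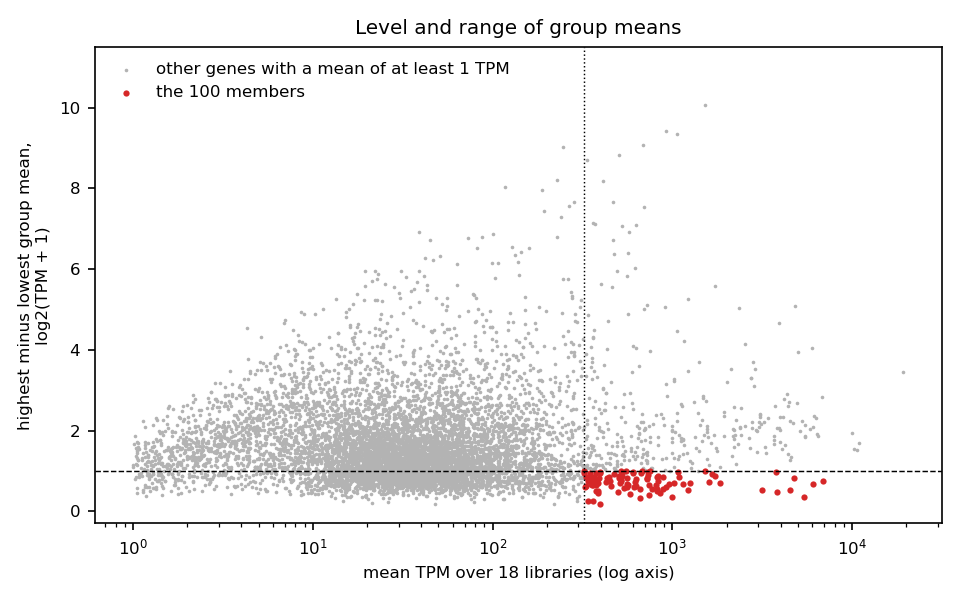
Mean TPM over 18 libraries (log axis) against the highest minus lowest of the 6 group means of log2(TPM + 1), for the genes tested. Red points are the 100 members, grey points all other genes; the dashed line is the range threshold of 1 and the dotted line the mean of the last member, 324 TPM.

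The members spanned 324 to 6861 TPM in mean level, with a median of 575 TPM, against a median of 32.8 TPM over the 7938 genes tested. Of the 100, 19 had a mean of at least 1000 TPM and 64 of at least 500 TPM. Few of the most abundant transcripts were among them: the members included 7 of the 50 and 9 of the 100 most abundant genes. No member was listed at 0 in any library, and the lowest single value was 131 TPM. The 10 most abundant members held 42.8% of the summed level of all 100. The last member, RTO4_8615, had a mean of 324 TPM, and RTO4_15546, the next gene under the range threshold and not a member, had 313 TPM.

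Together the members took 9.79% ± 1.41 of the library total (SD, 18 libraries). The share was 9.14% ± 2.05 in the wild type without carbon, 9.65% ± 0.915 in the deletion strain without carbon, 9.56% ± 2.18 in the wild type on succinate, 10.3% ± 0.141 in the deletion strain on succinate, 10.6% ± 2.14 in the wild type on cellobiose and 9.46% ± 0.176 in the deletion strain on cellobiose (SD, n = 3 each). All 6 groups overlapped with at least 1 other group, and the 2 extremes were libraries of the wild type. The lowest share was 6.94%, in wild type replicate 3 without carbon, and the highest was 13.1%, in wild type replicate 3 on cellobiose. The other 337 abundant genes took 41.1% to 72.3% of a library.

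**Figure D2:**
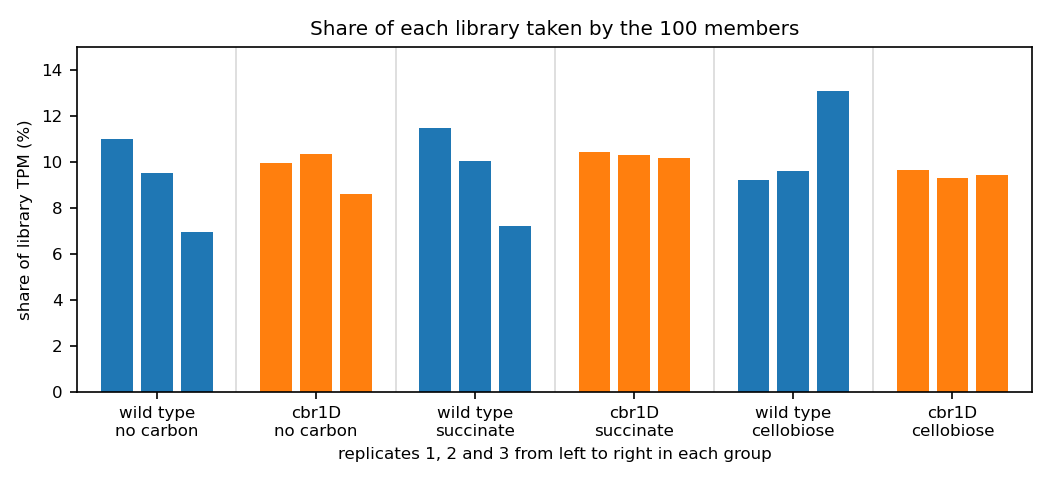
Share of the library total (percent of TPM) taken by the 100 members, 1 bar for each library, with replicates 1, 2 and 3 from left to right; blue bars are wild type and orange bars deletion libraries. Deletion libraries lay between 8.62% and 10.4% and wild type libraries between 6.94% and 13.1%.

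The most abundant member, RTO4_12506, ranked 6 of all genes by mean level. It stood at 11236, 7601 and 3596 TPM in wild type replicates 1, 2 and 3 without carbon and at 9698, 6617 and 3290 TPM in those on succinate. On cellobiose the wild type values were 2293, 4058 and 11520 TPM. Replicate 3 was thus the lowest wild type library in 2 media and the highest in the third. The deletion strain held 9204, 8121 and 6699 TPM without carbon, 7323, 5358 and 7307 TPM on succinate and 7408, 5752 and 6409 TPM on cellobiose. All 9 deletion libraries fell inside the span of the wild type libraries. The group means of RTO4_12506 differed by 0.74 at most (log2), while its single libraries differed by 2.33.

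RTO4_11317, the next in level with a mean of 6063 TPM, stood at 5431, 5185 and 3187 TPM in the wild type without carbon, at 8238, 5367 and 4027 TPM on succinate and at 5774, 5868 and 9611 TPM on cellobiose. Its deletion libraries held 4525, 5977 and 5178 TPM without carbon, 8190, 7129 and 6183 TPM on succinate and 6172, 5863 and 7225 TPM on cellobiose. Wild type replicate 3 again gave the lowest and the highest of the 18 values. RTO4_14717 had the smallest range of group means of the 4 most abundant members, 0.35 (log2). Its wild type values were 6159, 5323 and 2955 TPM without carbon, 7947, 6024 and 2915 TPM on succinate and 3382, 4737 and 7551 TPM on cellobiose. The deletion values of RTO4_14717 were 6252, 6198 and 4852 TPM without carbon, 5174, 4916 and 5470 TPM on succinate and 6655, 5886 and 5160 TPM on cellobiose, a narrower span than in the wild type.

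RTO4_10055 followed a different course. It held 3192, 3503 and 4070 TPM in the wild type and 3488, 3626 and 4165 TPM in the deletion strain without carbon. On succinate it held 5251, 6590 and 7484 TPM in the wild type and 5004, 5528 and 5586 TPM in the deletion strain. All 6 libraries on succinate lay above all 6 without carbon, and the group means differed by up to 0.84 (log2). In TPM this member thus met the range rule with a level that differed between media. The size depended on the scale: the range of its group means was 1.69 after median-ratio scaling and 0.31 after quantile normalization, both taken up below. On cellobiose it held 5232, 4771 and 2984 TPM in the wild type and 4778, 5058 and 5100 TPM in the deletion strain, where replicate 3 of the wild type was the lowest of all 18 libraries.

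**Figure D3:**
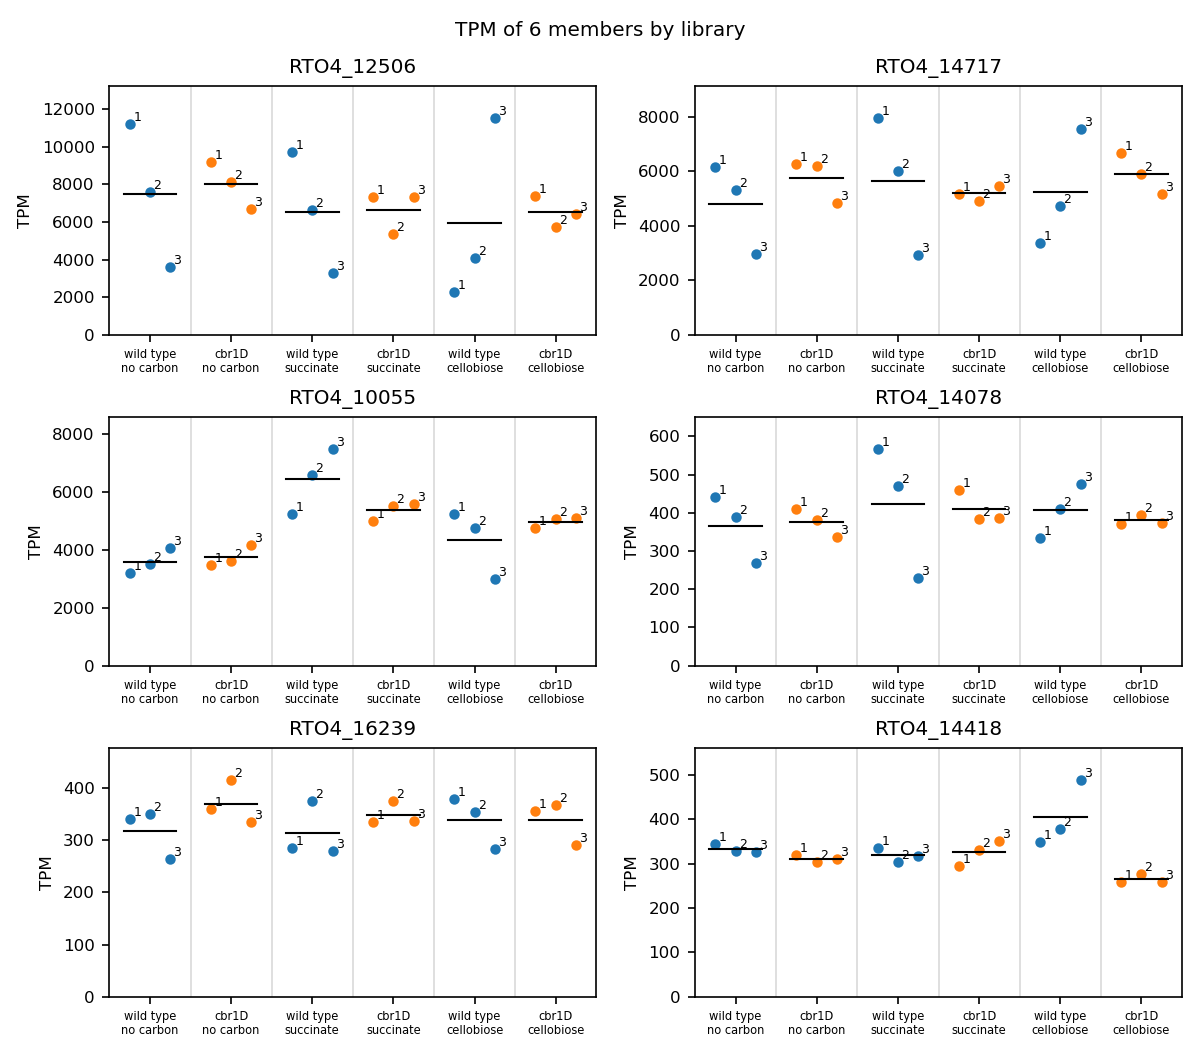
TPM (linear axes from 0) of 6 members in each library, chosen by level (RTO4_12506, RTO4_14717, RTO4_10055), by small range of group means (RTO4_14078, RTO4_16239) and by smallest spread between replicates (RTO4_14418). Points are libraries marked with their replicate number, blue for wild type and orange for the deletion strain, and bars are means of 3; the group means of RTO4_12506 lie between 5957 and 8008 TPM while its wild type libraries run from 2293 to 11520 TPM.

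The smallest range of group means, 0.19 (log2), belonged to RTO4_14078. Its group means ran from 367 ± 88.9 TPM in the wild type without carbon to 423 ± 174 TPM in the wild type on succinate (SD, n = 3 each). The wild type libraries on succinate held 567, 471 and 230 TPM, and those without carbon held 442, 390 and 268 TPM. The 3 deletion groups were tighter, at 377 ± 37.1, 410 ± 42.9 and 380 ± 12.9 TPM without carbon, on succinate and on cellobiose (SD, n = 3 each). RTO4_16239 and RTO4_10010 came next, with ranges of 0.24 and 0.26. RTO4_16239 ran from 264 to 415 TPM over all 18 libraries and RTO4_10010 from 268 to 448 TPM, so these members were steady between libraries and not only between means. RTO4_15038, with a range of 0.34, ran from 478 to 1237 TPM, and its highest value was that of wild type replicate 3 on succinate, where replicates 1 and 2 held 620 and 517 TPM.

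At the other edge, RTO4_11502, RTO4_14226, RTO4_15631 and RTO4_11263 lay just inside the threshold with ranges of 0.990, 0.989, 0.989 and 0.988. RTO4_11502 was lowest in the wild type on succinate, at 365, 361 and 278 TPM, and highest in the deletion strain on cellobiose, at 696, 787 and 524 TPM, with no overlap. RTO4_14226 had the same lowest and highest groups, at 387, 573 and 386 TPM against 1009, 923 and 721 TPM. RTO4_15631 was highest in the wild type on cellobiose, at 567, 540 and 385 TPM, and the deletion libraries on cellobiose held 238, 272 and 240 TPM. RTO4_11263 was highest in the deletion strain on succinate, at 911, 725 and 638 TPM, against 348, 575 and 268 TPM in the wild type on succinate. For each of these 4 members, the libraries of the highest group lay above all those of the group named with it. For RTO4_15631 the lowest group mean was in the wild type without carbon, at 7.95 against 7.97 in the deletion strain on cellobiose (log2). The 4 were picked for the largest ranges of these same group means, which favours such gaps, so nothing is read from them. The share of the genes tested with such a gap was not counted.

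Just outside, among genes at least as abundant as the last member, were RTO4_13737, RTO4_15184, RTO4_10015 and RTO4_13614, with ranges of 1.00, 1.01, 1.01 and 1.01. The threshold thus fell within a closely spaced series of ranges. The most abundant gene of all, RTO4_11385, had a range of 3.46, from 3392 ± 477 TPM in the wild type on cellobiose to 38984 ± 16186 TPM in the deletion strain without carbon (SD, n = 3 each). RTO4_12636, the next in abundance, had a range of 1.70.

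How far libraries of the same group differed was not itself part of the range rule, although every library entered its group mean. This spread between replicates was measured as the residual SD of log2(TPM + 1) around the group means, with 12 degrees of freedom. The median was 0.348 over the members, 0.529 over the 337 abundant genes that failed the range rule and 0.411 over the 7938 genes tested. Members ran from 0.123 to 0.856, with quartiles of 0.266 and 0.490, and 24 of 100 were at 0.5 or above, against 27.2% of the genes tested. A steady mean was therefore no guarantee of close replicates. Of the summed variance of the members over 18 libraries, 61.4% lay between replicates of the same group, against 24.3% for the genes tested, and since the rule limits the rest, no test is given.

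RTO4_16581 and RTO4_11769 had the largest spread between replicates, with residual SDs of 0.856 and 0.796. RTO4_16581 held 1662, 890 and 308 TPM in wild type replicates 1, 2 and 3 without carbon, 1098, 543 and 276 TPM on succinate and 525, 618 and 2000 TPM on cellobiose. RTO4_11769 held 853, 506 and 217 TPM, 1018, 513 and 324 TPM and 146, 212 and 902 TPM in the same 3 groups. In both members, replicate 3 was lowest without carbon and on succinate and highest on cellobiose. RTO4_14418 and RTO4_12844 had the smallest spread, with residual SDs of 0.123 and 0.139. RTO4_14418 held 344, 328 and 326 TPM in the wild type and 319, 304 and 310 TPM in the deletion strain without carbon, and 336, 304 and 319 TPM and 295, 332 and 351 TPM on succinate. On cellobiose it held 350, 378 and 488 TPM in the wild type and 258, 278 and 258 TPM in the deletion strain, so the strains did not overlap without carbon or on cellobiose and did overlap on succinate.

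With all libraries, replicates lay further apart in the wild type than in the deletion strain. Within a group of 3, the SD of the median member in the wild type was 0.338 in the absence of carbon, 0.445 on succinate and 0.429 on cellobiose, and in the deletion strain it was 0.181, 0.263 and 0.121. Over the genes tested the same medians were 0.522, 0.401 and 0.299 in the wild type and 0.289, 0.339 and 0.203 in the deletion strain. Across the 9 libraries of a strain, 69 members stayed within a range of 1 (log2) in the deletion strain and 17 in the wild type, against 24.7% and 3.41% of the genes tested. The wild type range was the wider of the pair for 83 members and for 72.8% of the genes tested. Over replicates 1 and 2 of both strains alone, a comparison added after the data were seen, 82 members stayed within a range of 1 in the deletion strain and 54 in the wild type (genes tested 46.5% and 33.5%). The wild type range was then the wider for 69 members and for 67.3% of the genes tested.

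Over the members, the wild type libraries numbered 3 lay furthest from their group means in all 3 media. In replicate 3 without carbon the members lay a median of 0.36 below their group mean (log2), and 36 members lay at least 0.5 below, against 56.0% of the genes tested. In replicate 3 on succinate the median was -0.45, with 37 members at least 0.5 below, against 33.0% of the genes tested. In replicate 3 on cellobiose the median was 0.25, with 36 members at least 0.5 above, against 15.7% of the genes tested, and 11 at least 0.5 below. The genes tested had medians of -0.55, -0.34 and 0.01 in these 3 libraries, so without carbon a smaller share of members than of the genes tested was low, on succinate the shares were close, and on cellobiose a larger share of members was high. Wild type replicate 1 deviated the other way. Without carbon 25 members lay at least 0.5 above the mean there and 0 below, and on succinate 34 above and 1 below. On cellobiose 3 lay at least 0.5 above and 19 below. Deviations within a group balance out, so those of replicates 1 and 3 are not independent. The genes tested were not counted in this way for replicate 1. No deletion library had a member median further than 0.16 from its group mean. Of the 100 members, 37 had their highest of 18 values in wild type replicate 3 on cellobiose, 36 had their lowest in wild type replicate 3 on succinate and 22 in wild type replicate 3 without carbon.

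**Figure D4:**
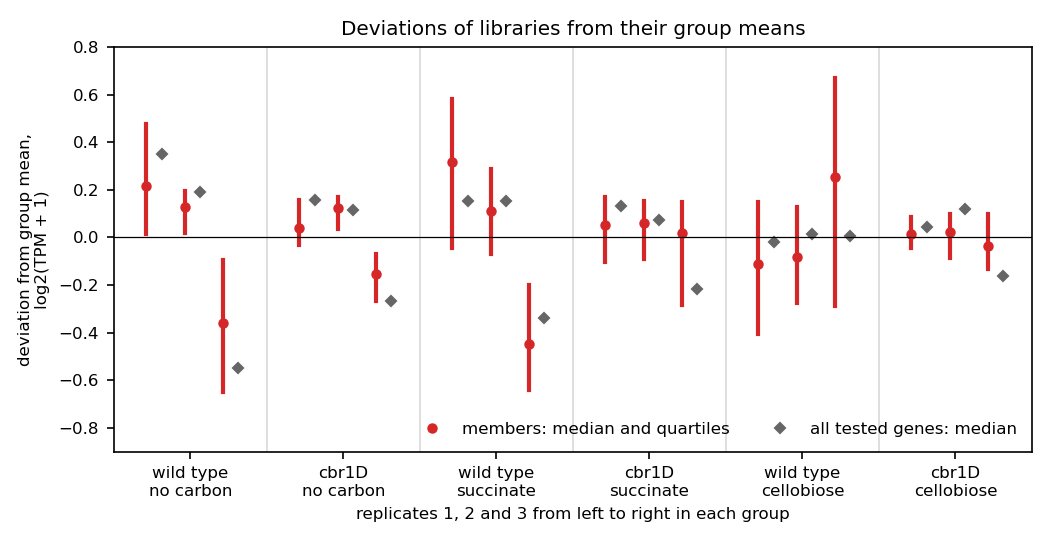
Deviation of each library from its group mean in log2(TPM + 1), with replicates 1, 2 and 3 from left to right in each group. Red points and lines are the median and quartiles over the 100 members and grey diamonds the median over all tested genes; in wild type replicate 3 the member medians are -0.36, -0.45 and 0.25, and in deletion libraries they stay within 0.16 of 0.

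Some members took part in all 3 deviations. At least 0.5 below the mean in replicate 3 without carbon and on succinate, and at least 0.5 above it on cellobiose, were 20 of the 100 members, against 6.24% of the genes tested and 3.26% of the abundant genes that failed the range rule. The wild type replicate 3 libraries also entered the group means that chose the members, and some members met the range rule only with them. The part of that choice in this contrast was not tested. The labels of these libraries were taken as given. Whether a label is wrong, and the part of library quality or batch in these deviations, was not tested. The first principal component of the members over 18 libraries held 41.2% of their variance and set wild type replicate 3 on cellobiose (score 6.38) against wild type replicate 3 on succinate (-5.61) and without carbon (-4.94). Wild type replicate 1 without carbon (3.76) and on succinate (3.30) lay on the side of the cellobiose library. Deviations of members from their group means correlated with a median r of 0.26 over pairs of members, against 0.06 for the abundant genes that failed the range rule. These pairs share the 18 libraries, which also chose the members, and the values are a description.

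Without wild type replicate 3 in all 3 media, 76 of the 100 members kept a range of group means under 1, and 75 of them would be chosen again. The median residual SD of the members fell to 0.235, and that of the genes tested was 0.282. The within-group SD of the median member in the wild type was 0.124 (no carbon), 0.331 (succinate) and 0.0757 (cellobiose), each over the remaining pair of libraries. Without carbon and on cellobiose these lay below the 0.181 and 0.121 of the deletion strain. Those 2 values are over 3 libraries, so the order of the strains cannot be read from this contrast. Over replicates 1 and 2 of the deletion strain the member values were 0.0924, 0.157 and 0.0649, below those of the wild type pairs in all 3 media. Over the genes tested the deletion pair was also lower without carbon (0.110 against 0.149). It was higher on succinate (0.184 against 0.170) and on cellobiose (0.100 against 0.0791). Without wild type replicate 3, RTO4_12506 had a range of 1.60 and RTO4_11769 a range of 2.03, whereas RTO4_16239, RTO4_10010 and RTO4_14418 stayed at 0.17, 0.39 and 0.46. The most abundant member was thus among those that met the range rule only with these libraries.

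The group in which a member was highest also depended on them. With all libraries, 40 members had their highest group mean in the wild type on cellobiose, 22 in the deletion strain without carbon, 16 in the deletion strain on succinate, 10 in the deletion strain on cellobiose, 8 in the wild type on succinate and 4 in the wild type without carbon. The lowest mean fell in the wild type on succinate for 33 members. Without wild type replicate 3, 18 members were highest in the wild type on cellobiose and 26 each in the wild type without carbon and on succinate. The median group mean over members lay between 8.99 (wild type, succinate) and 9.28 (wild type, cellobiose) with all libraries and between 9.13 and 9.29 without them.

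A check in libraries that did not choose the genes was made by taking 100 genes with the same rule from 2 of the replicate numbers and measuring their range over the 6 libraries of the remaining number. With replicate 1 left for the check, 52 of 100 had a range under 1, against 22.98% of the genes tested and 3 of the 100 most abundant genes that had failed the rule. With replicate 2 left, 68 did, against 30.2% and 1 of 100. With replicate 3 left, 26 did, against 8.43% and 1 of 100. The median ranges of the chosen genes were 0.98, 0.83 and 1.48, and those of the genes tested were 1.55, 1.39 and 1.75. In all 3 cases the chosen genes were closer together than the genes tested, and in replicate 3 most of them were not within the threshold.

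A range over all 18 single libraries under 1 was met by 8 of the members. This range cannot be smaller than that of the group means, which chose the members, so no contrast with other genes is drawn. Their levels lay between 327 and 4487 TPM. RTO4_15909, named after its values were seen, was the most abundant of the 8, ranked 30 of all genes, and ran from 3164 to 5973 TPM. RTO4_16239, RTO4_10010, RTO4_12844 and RTO4_14418, described above, were among the 8, with ranges of 0.65, 0.74, 0.77 and 0.92 over single libraries.

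Between strains and media the members' differences are bounded by the rule, and only their direction and size within that bound are described; comparisons share libraries. On cellobiose, 30 members were at least 0.5 (log2) lower in the deletion strain and 6 at least 0.5 higher, and of the genes tested 21.5% were at least 0.5 lower and 37.4% higher. The median difference was -0.18 over members and 0.22 over the genes tested. Without wild type replicate 3 in all media, 18 members were at least 0.5 lower and 11 higher, with a median of -0.09. On succinate, 0 members were at least 0.5 lower in the deletion strain and 13 higher (genes tested 3.4% and 47%), and without carbon 1 was lower and 2 higher (genes tested 8.1% and 23.2%). The medians over members were 0.17 and 0.09, and those over the genes tested were 0.47 and 0.27. Without wild type replicate 3, 4 members were lower and 7 higher on succinate, with a median of -0.00, and 4 were lower and 0 higher without carbon, with a median of -0.09. The sign of the member median without carbon thus turned with these libraries. Over the genes tested the medians without these libraries were 0.23 on cellobiose, 0.32 on succinate and 0.008 without carbon. The median without carbon thus fell over the genes tested as well.

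Against the medium without carbon, 26 members were at least 0.5 higher and 8 lower in the wild type on cellobiose (genes tested 23.8% and 36.2%). On succinate 8 were higher and 14 lower (genes tested 8.24% and 55.2%). On cellobiose the deletion strain had 5 higher and 14 lower members (genes tested 13% and 31.6%), and on succinate it had 18 higher and 12 lower (genes tested 13.9% and 44%). Between cellobiose and succinate, 31 were higher and 7 lower on cellobiose in the wild type (genes tested 44.6% and 10%), whereas the deletion strain had 3 higher and 12 lower (genes tested 30.4% and 17.4%). Without wild type replicate 3, the wild type counts were 18 higher and 22 lower for cellobiose against no carbon, 13 higher and 21 lower for succinate against no carbon, and 18 higher and 15 lower for cellobiose against succinate. Without these libraries the lower members outnumbered the higher for cellobiose against no carbon, and the excess of higher members for cellobiose against succinate shrank. The medians of the genes tested moved the same way in these comparisons, from -0.13 to -0.42 and from 0.43 to 0.21.

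Small differences within the bound passed limma, a linear model fitted to all 7938 genes with Benjamini-Hochberg adjustment, at an adjusted p under 0.05 for few members. Between strains it called 3 members on cellobiose, 0 on succinate and 0 without carbon, where it called 35.8%, 0.0378% and 0.0756% of the genes tested. At an unadjusted p under 0.05 the counts of members were 19, 3 and 0, against 3610, 2149 and 754 of the 7938 genes tested. Without carbon, where wild type and deletion libraries of the same number deviated alike, limma with a replicate block in those 6 libraries alone called 1 member and 8.55% of the genes tested. Between media in the wild type it called 8 members (cellobiose and no carbon), 4 (succinate and no carbon) and 2 (cellobiose and succinate), with backgrounds in that order (38.1%, 40% and 12.3% of the genes tested). In the deletion strain these counts were 2, 7 and 2 (20%, 35.2% and 15.8%). Same-numbered libraries without carbon deviated alike with those on succinate in the wild type and with those on cellobiose in the deletion strain. With a replicate block over all 18 libraries these pairs of media gave 11 and 6 members (50.6% and 26.7% of the genes tested). That block fits a common replicate effect to all groups, so it is not a fit paired within these media alone. For the difference of the strain effect between media, limma called 0 members in each pair of media. It called 3.33% of the genes tested for cellobiose and no carbon, 7.85% for cellobiose and succinate and 0% for succinate and no carbon. At an unadjusted p under 0.05 there were 7, 9 and 1 members, and the genes tested were not counted at that level. The members were chosen from these group means, so nothing is read from the counts, which moved by more than 1.5 times with single libraries in 8 of the 9 pairwise comparisons.

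Steadiness in TPM was also relative to the scale. The typical gene did not hold its TPM across groups: the median group mean over the genes tested was 4.40 (log2) in the wild type on succinate and 5.26 in the deletion strain without carbon. The median member lay 4.59 above it in the wild type on succinate and 3.87 above it in the deletion strain without carbon. After median-ratio scaling, which sets the typical gene equal between libraries, 54 of the 100 members kept a range under 1, and the median range over members was 0.93 instead of 0.74. Over the genes tested, the share with a range under 1 was 27.2% in TPM and 40.6% after this scaling. On that scale 60 members were highest in the wild type on succinate, against 8 in TPM, and 55 were lowest in the deletion strain without carbon, against 14. Directions turned as well. Between succinate and no carbon in the wild type, 57 members were at least 0.5 higher on succinate and 0 lower after median-ratio scaling, against 8 and 14 in TPM, and limma called 31 higher and 0 lower, against 2 and 2. Between cellobiose and succinate in the wild type, 1 was higher and 21 lower on cellobiose, against 31 and 7 in TPM, and limma called 0 higher and 5 lower, against 2 and 0. Between strains on succinate, the deletion strain had 0 higher and 25 lower members, against 13 and 0 in TPM. In these wild type comparisons limma called 2943 and 978 of the 7938 genes tested after scaling, against 3179 and 973 in TPM. The median differences of the genes tested in all 3 comparisons were -0.0153, -0.000548 and -0.000154 after scaling. Their share at 0.5 or more was not counted on that scale. The median difference over members also changed sign between strains without carbon (0.09 in TPM and -0.21 after scaling) and between cellobiose and no carbon in the deletion strain (-0.08 and 0.14). After quantile normalization 80 members kept a range under 1, against 43.2% of the genes tested. Over all 3 scales 48 members did, and 6 of these were among the 8 with a range under 1 over single libraries. The others of the 8, RTO4_12844 and RTO4_13628, had ranges of group means of 1.27 and 1.03 after median-ratio scaling.

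**Figure D5:**
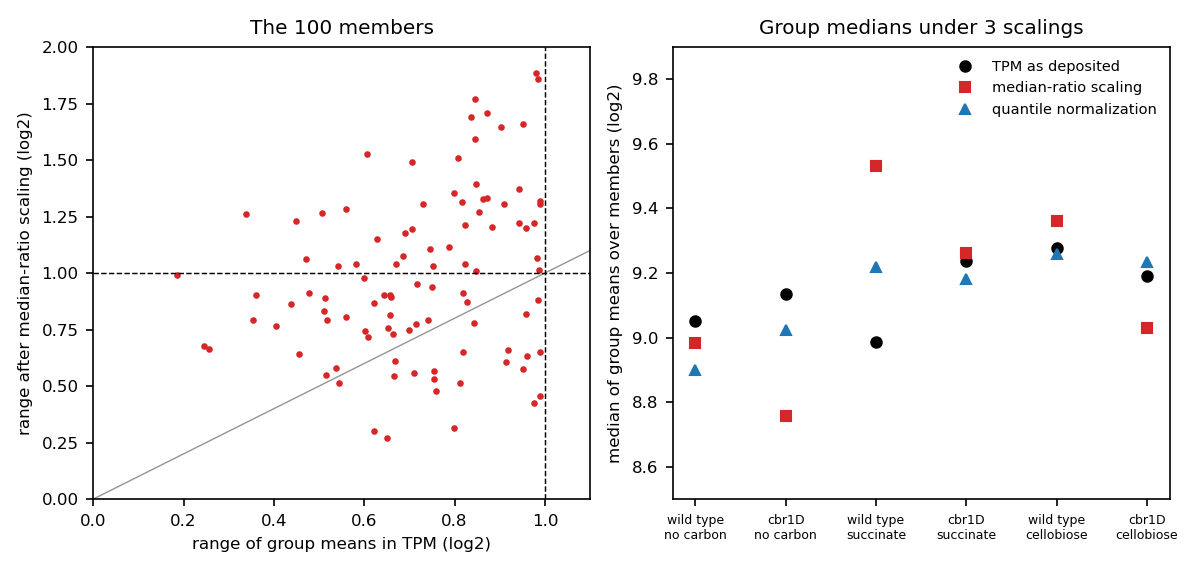
Left, range of group means of each member in TPM against its range after median-ratio scaling (log2), with dashed lines at 1 and the line of equality in grey; 54 of the 100 members lie under 1 after scaling. Right, median over the members of the group means of log2 values in the 6 groups under 3 scalings, on an axis that does not start at 0; median-ratio scaling moves the wild type on succinate from 8.99 to 9.53 and the deletion strain without carbon from 9.13 to 8.76.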

How the data were processed

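The deposited values are TPM, made by the authors, for 8484 genes in 18 libraries; all columns were matched to samples by library name. Salmon 1.10.0 is listed in the submitters' processing notes, without its role; no genome build or annotation is given in the sources used here. Depth is unknown. From the deposited TPM, log2(TPM + 1) was computed in Python 3.11.15. Members were found by the stated rule over all 8484 genes, and the members and lists were chosen with earlier results of these data known. Of the identifiers, 0 matched the reference table of 8171 genes.

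The 7938 genes whose mean reached 1 TPM were analysed in R 4.3.3 by limma 3.58.1: 1 mean per group, trended moderation and a spread shared by all 18 libraries. The fit was tested on simulated data. Genes named are the members highest in level (4), with the smallest and largest range (4 each), with the largest and smallest residual SD (2 each), and non-members just outside the threshold (4) or most abundant (2). Without carbon, wild type and deletion libraries of the same number deviated alike (r over the genes tested 0.61, 0.24 and 0.69) but not on succinate (0.08, -0.34 and -0.32) or cellobiose (-0.06, -0.06 and -0.06). Without carbon, wild type replicate 2 correlated more with deletion replicate 1 (0.35) than with deletion replicate 2. Across media, every same-numbered pair exceeded 0.1 between no carbon and succinate in the wild type (0.31, 0.15 and 0.24) and between no carbon and cellobiose in the deletion strain (0.27, 0.11 and 0.37), and not in the other 4 pairs of media. In the deletion strain, succinate and cellobiose gave 0.22, 0.094 and 0.20, where only replicate 2 was under 0.1. Alternatives were other scalings, pseudocounts of 0.1 and 5, no filter, a replicate block and leaving out each library. Wild type replicate 3 was left out together after the data were seen, as was the fit of the no carbon libraries alone, and strain spread was remeasured in replicates 1 and 2 of both strains.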

Additional observations from a re-analysis of the deposited data

How the results depend on the processing

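Of the 100 members, 100 kept a range of group means under 1 with a pseudocount of 0.1 or 5, 97 with means of TPM taken before the logarithm, 80 after quantile normalization and 54 after median-ratio scaling. A range under 1 was met by 27.2% of the genes tested in TPM, 43.2% after quantile normalization and 40.6% after median-ratio scaling. A threshold of 0.5 left 12 members, and a range over all 18 single libraries under 1 left 8. Leaving out each library in turn kept 85 (without wild type replicate 3 on succinate) to 100. The members' mean share of TPM stayed between 9.60% and 9.96% and their median residual SD between 0.311 and 0.363. Held-out counts of 52, 68 and 26 became 46, 73 and 30 after median-ratio scaling. The share of the genes tested under 1 rose from 22.98%, 30.2% and 8.43% to 32.0%, 39.2% and 23.9%. With replicate 3 left for the check, the chosen genes were thus nearer to the genes tested on that scale.

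Counts of members passing limma moved most. In the order of strain effect on cellobiose, wild type succinate against no carbon, wild type cellobiose against no carbon, wild type cellobiose against succinate, deletion succinate against no carbon, deletion cellobiose against no carbon and deletion cellobiose against succinate, the counts of 3, 4, 8, 2, 7, 2 and 2 became 26, 31, 19, 5, 23, 3 and 11 after median-ratio scaling and 17, 17, 20, 2, 20, 9 and 7 after quantile normalization. Of the 7938 genes tested, the main fit called 2842, 3179, 3021, 973, 2791, 1588 and 1251 in that order. The counts over the genes tested became 3978, 2943, 4233, 978, 3116, 2101 and 2317 after median-ratio scaling. After quantile normalization they were 3540, 2946, 4029, 613, 3276, 2501 and 2495. With a replicate block in the fit of 18 libraries the member counts were 16, 11, 16, 11, 15, 6 and 4. The block called 44.6%, 50.6%, 46.8%, 31.3%, 44.7%, 26.7% and 26.7% of the genes tested. The numbers pair the libraries in wild type succinate against no carbon (4 to 11) and deletion cellobiose against no carbon (2 to 6); in the other 5 of these comparisons the pairing check was not met. The strain effect on succinate, 0 members, became 3 with the block over 18 libraries, which called 24.0% of the genes tested there. Between strains without carbon, where same-numbered libraries also deviated alike, the block in a fit of those 6 libraries alone called 1 member and 8.55% of the genes tested. Without the filter on low values the strain effect on cellobiose gave 9 members and 2831 of 8484 genes. Wild type cellobiose against succinate then gave 4 members and 945 genes. Without wild type replicate 3 in all media the 7 member counts were 18, 15, 26, 7, 22, 11 and 11. Of the 7945 genes in that fit, 3694, 4723, 3937, 676, 4130, 2814 and 2903 were called. Leaving out each library gave member counts of 1 to 13, 0 to 9, 2 to 15, 0 to 5, 3 to 11, 0 to 4 and 0 to 4. For the strain effect they were 0 to 1 on succinate and 0 without carbon. For the 7 comparisons the highest count came, alone or tied, without a wild type replicate 3 library; for the strain effect on succinate it came without deletion replicate 3. Depth is unknown in TPM, so its limit on these values could not be set.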
